A study of Arabidopsis thaliana and Nicotiana tabacum with 16 samples.

Results

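The ribosome footprints of 9 nuclear genes for enzymes of the Calvin-Benson cycle were followed through 14 Arabidopsis libraries of a ribosome profiling (Ribo-seq) series. The genes, 9 of the 27628 counted, were taken by identifier and not by their values, though earlier results of these data were known. They are PGK1, PGK2, the plastid triosephosphate isomerase (pdTPI), CFBP1, SBPASE, TKL1, TKL2, the plastid ribulose-phosphate epimerase (RPE) and the plastid ribose-phosphate isomerase (RPI). All 9 passed the filter on low counts in every comparison.

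The Calvin-Benson cycle fixes CO2 in the chloroplast stroma onto ribulose bisphosphate, reduces the product to triose phosphate and rebuilds the acceptor from it. The rebuilding branch joins and splits sugar phosphates with aldolase and transketolase, and the fructose and sedoheptulose bisphosphatases are among its irreversible steps. Most enzymes of the branch are encoded in the nucleus, translated by cytosolic ribosomes and imported into the plastid. Several of the same reactions also occur in glycolysis and in the pentose phosphate pathway, which have isoforms of their own.

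Ribo-seq sequences the stretches of mRNA that remain under ribosomes after nuclease treatment, termed ribosome-protected fragments (RPFs). All Arabidopsis libraries were made from Col-0 seedlings on Murashige and Skoog medium, lysed with cycloheximide and chloramphenicol. MNase libraries came from 8-day seedlings in 16 h light on 1% sucrose, whose lysates received micrococcal nuclease at 75, 150 or 300 U, units being set per volume of lysate. Libraries termed V1 and V2 came from 14-day seedlings in 12 h light, with no sucrose named, were digested with 600 U of RNase I and were depleted of rRNA with version 1 or version 2 of an oligonucleotide mixture. A ligation-free and a ligation-based kit library, both depleted of rRNA, were also labelled 14-day and 600 U. Undepleted 14-day libraries received RNase I at 400, 550 or 700 U, and a repeat of the 700 U library was made from the same RPFs. The undepleted and the kit libraries also came from seedlings in 12 h light, with no sucrose named. RNase I libraries of 8-day seedlings, grown as the MNase seedlings were, received 62.5, 125 or 250 U. The series also holds 2 tobacco libraries, which were not used here. Each condition is 1 library, so the doses stood as the replicates of a group, and p-values measure the spread between these libraries, with any effect of dose within it.

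Totals of counts over coding sequence (CDS) lay between 2338819 and 11583740, and the 9 genes together held 0.570 to 0.776% of them. All 8 green-tissue markers (CAB, LHC, PSBO and PETE genes) had counts in every library, and 0 to 3 of 8 root markers were at 0. The summed root markers lay at 1683 to 1851 CPM (counts scaled to a common library total) in the MNase libraries, 1069 to 1086 in the kit libraries, 840 to 953 in undepleted 14-day seedlings and 1839 to 1895 after RNase I at 8 days. V1 and V2 stood apart from each other, with 2001 CPM of root markers in V1 and 1212 in V2. Most of these sums was 1 gene, PYK10. After scaling by trimmed means, PYK10 averaged 1575 CPM in V1 and V2 and 818 CPM in the undepleted 14-day libraries. Over the 9 genes, V1 lay a root mean square of 0.68 (log2 of CPM) from the mean of the undepleted 14-day libraries it is labelled with, and 0.14 from the 8-day RNase I mean. Without TKL2, which has few counts, these distances of V1 were 0.40 and 0.14. V2 lay 0.42 from the 14-day mean and 0.53 from the 8-day mean, an order that turned without TKL2 (0.40 and 0.35). Single genes differed in this. In V1, SBPASE stood at -0.049 from the 14-day mean and 0.24 from the 8-day mean, and CFBP1 at -0.21 and -0.26. The other genes in V1 lay nearer the 8-day mean. By root mean square and in summed root markers V1 thus goes against its age label, though not in SBPASE or CFBP1, and V2 has no clear side. The depletion results below are therefore given for both libraries, without V1 and without V2.

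Phosphoglycerate kinase phosphorylates phosphoglycerate at the expense of ATP, and its plastid forms are PGK1 (AT3G12780, CDS at chr3:4061130-4063140, minus strand) and PGK2 (AT1G56190, chr1:21028403-21030451, plus strand). Triosephosphate isomerase interconverts the triose phosphates, and its plastid form is pdTPI (AT2G21170, chr2:9071050-9073106, minus). The bisphosphatases are CFBP1 for fructose bisphosphate (AT3G54050, chr3:20016951-20018524, plus) and SBPASE for sedoheptulose bisphosphate (AT3G55800, chr3:20709640-20711418, plus). Transketolase moves ketol units between sugar phosphates and is encoded by TKL1 (AT3G60750, chr3:22454004-22456821, plus) and TKL2 (AT2G45290, chr2:18672737-18675586, plus). RPE (AT5G61410, chr5:24684088-24685836, minus) and RPI (AT3G04790, chr3:1313365-1314192, plus) both make ribulose phosphate. All coordinates are of TAIR10, CDS lengths run from 828 to 2223 bases, and RPI has 1 CDS segment while the others have 4 to 9.

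PGK1 and PGK2, and TKL1 and TKL2, are close relatives, and their sequences are shown because a footprint of about 28 bases from an identical stretch cannot be assigned to either. The aligned CDS of PGK1 and PGK2 were identical at 87.2% of 1431 positions, with a longest identical run of 41 bases. Those of TKL1 and TKL2 were identical at 85.0% of 2217 positions, with a longest run of 32 bases. The first 30 bases of each longest run, counted from base 625 of the CDS in PGK1, 616 in PGK2 and 1621 in both transketolases, and the 30 aligned bases that differ most, with the differing bases in capitals, were as follows.
PGK1 shared run: tttgctaagaagcttgcttctctagctgac
PGK2 shared run: tttgctaagaagcttgcttctctagctgac
PGK1 from base 10: GcTgccgcaaGtTcCgcCTtttcACtcCtT
PGK2 from base 10: AcCgccgcaaCtGcAgcTCtttcGAtcAtC
TKL1 shared run: tccattggtcttggagaagatggaccaacc
TKL2 shared run: tccattggtcttggagaagatggaccaacc
TKL1 from base 197: cTgcAgcTgtTgagAcTGtTgAgCcaaCCA
TKL2 from base 197: cAgcCgcCgtAgagGcAAtCgTgAcaaGTT

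Of all 28-base windows, 50 of 1416 in PGK1 (3.53%) occurred in the CDS of another gene, PGK2 or the cytosolic PGK3. In PGK2 they were 46 of 1407 (3.27%), and in TKL1 and TKL2 5 of 2196 each (0.228%). The other 5 genes shared no such window with any other nuclear CDS. If PGK1 footprints lay evenly along its CDS, the windows it shares with PGK2 would hold counts equal to 26.9 to 35.7% of PGK2's own counts, over all 14 libraries. For TKL1 the shared windows would hold 39.9 to 58.9% of the TKL2 counts in the undepleted 14-day libraries, where TKL2 had 16 to 23 counts, and 18.2 to 21.4% after RNase I at 8 days. How the authors' alignment split such reads was not tested, so values of PGK2 and TKL2 are uncertain. The percentages are no bound, since shorter footprints can match both genes at more places and footprints need not lie evenly.

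Levels of different genes were compared on the TPM scale, in which counts are divided by CDS length and scaled to the same total in each library. PGK1 had the highest median, 888 TPM (range 703 to 1051 over the 14 libraries), followed by TKL1 with 876 TPM (583 to 1000) and SBPASE with 826 TPM (674 to 1247). These ranges overlapped, and either PGK1 or SBPASE ranked first, depending on the library. RPE had 669 TPM (597 to 897), CFBP1 466 TPM (390 to 567), pdTPI 371 TPM (305 to 456) and RPI 360 TPM (241 to 434). RPE stayed above CFBP1 in every library, while the ranges of CFBP1, pdTPI and RPI overlapped.

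The minor isoforms lay far lower. PGK2 had 99.6 TPM (64.6 to 124) and TKL2 7.39 TPM (2.52 to 14.2), and both stood below the other 7 genes in all 14 libraries. Among all genes, the 7 higher ones lay at the 97.9th percentile or above in each library, PGK2 at the 92.6th to 96.2nd and TKL2 at the 48.8th to 77.4th.

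**Figure D1:**
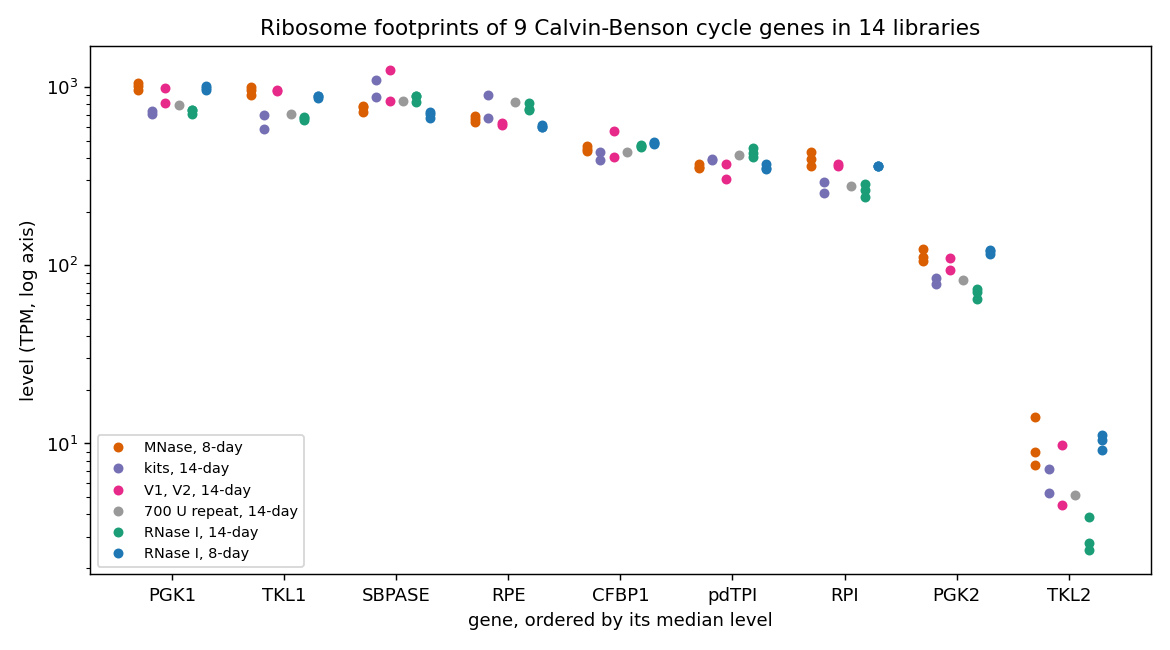
Level of each gene (TPM, log axis) in the 14 Arabidopsis libraries, each point 1 library, coloured by group. PGK2 (64.6 to 124 TPM) and TKL2 (2.52 to 14.2 TPM) lie below all points of the other 7 genes.

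PGK1 exceeded PGK2 by 8.49 to 9.14 times (ratio of TPM) in the MNase libraries, 10.11 to 10.9 times in the undepleted 14-day libraries and 8.22 to 8.38 times after RNase I at 8 days. This ratio was 9.63 in the 700 U repeat, 9.01 in V1, 8.66 in V2, 8.64 in the ligation-free and 9.01 in the ligation-based library. TKL1 exceeded TKL2 by 175 to 259 times in the undepleted 14-day libraries and 80.0 to 94.2 times after RNase I at 8 days. The ratio was 70.6 to 127 with MNase, 80.7 in the ligation-free and 131 in the ligation-based library, 97.6 in V1 and 210 in V2. It was 136 in the 700 U repeat, against 243 in the first library of the same RPFs. SBPASE exceeded CFBP1 in all 14 libraries, by 2.26 times in the ligation-free and 2.53 times in the ligation-based library, 2.06 times in V1, 2.20 times in V2, 1.74 to 1.91 times in the undepleted 14-day libraries and 1.41 to 1.48 times after RNase I at 8 days. With MNase the ratio was 1.55 to 1.79, which reached into the undepleted 14-day range, while the other groups did not overlap. It was 1.93 in the 700 U repeat, against 1.74 in the first library of the same RPFs. A second preparation thus moved the ratio from the lowest undepleted value to above the highest, so small gaps between groups carry little weight.

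Whether age and its growth conditions change these footprints was asked by setting the undepleted 14-day libraries against the 8-day RNase I libraries. The genes moved in opposite directions: pdTPI, SBPASE and RPE rose at 14 days, while PGK1, PGK2, TKL1, TKL2 and RPI fell, and CFBP1 did not pass the test. In edgeR's quasi-likelihood test 50.5% of the 15460 genes tested were called (adjusted p under 0.05), 25.5% higher and 24.9% lower, beside 3 of the 9 higher and 5 lower. The median log2 fold change was -0.45 over the 9 genes and 0.0068 over all genes tested. Day length, sucrose and dose differ with age and cannot be told apart from it. Values below are CPM after TMM normalization (scaling by trimmed means) within the comparison.

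SBPASE had 1168, 1169 and 1121 CPM at 400, 550 and 700 U in 14-day libraries, against 924, 972 and 999.7 CPM at 62.5, 125 and 250 U in 8-day libraries. Every 14-day value stood above every 8-day value, a log2 fold change of 0.26 ± 0.056 (SE; adjusted p = 0.000116). RPE had 703, 709 and 790 CPM in 14-day libraries, against 585, 588 and 602 CPM in 8-day libraries. It rose by 0.31 ± 0.059 (adjusted p = 1.34e-05), the largest of the 3 increases, and its groups did not overlap either. The third riser, pdTPI, had 451, 429 and 498.5 CPM in 14-day libraries, against 407, 387 and 384 CPM in 8-day libraries. Its gap between the groups was narrower, with a log2 fold change of 0.23 ± 0.064 (adjusted p = 0.00213).

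TKL1, the main transketolase, had 1621, 1688 and 1718 CPM in 14-day libraries, against 2232, 2302 and 2315 CPM in 8-day libraries. The lowest 8-day value lay well above the highest 14-day value, and the fold change was -0.45 ± 0.053 (adjusted p = 2.7e-10). PGK1 had 1141, 1201 and 1239 CPM in 14-day libraries, against 1618, 1708 and 1671 CPM in 8-day libraries (log2 fold change -0.48 ± 0.055, adjusted p = 8.41e-11). RPI had 246, 223.5 and 273 CPM in 14-day libraries, against 346, 348 and 347 CPM in 8-day libraries. Its 8-day values were nearly equal and its 14-day values spread, and it fell by 0.48 on the log2 scale (SE 0.069, adjusted p = 3.9e-08).

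The minor isoforms fell more than their major relatives. PGK2 had 104, 118 and 118 CPM in 14-day libraries, against 192, 205 and 202 CPM in 8-day libraries (log2 fold change -0.82 ± 0.079, adjusted p = 5.38e-13). TKL2 had 6.27, 9.63 and 7.07 CPM in 14-day libraries, against 23.7, 27.1 and 28.9 CPM in 8-day libraries (log2 fold change -1.82 ± 0.22, adjusted p = 3.24e-10). The difference between an isoform and its relative was not tested, and the shared windows given above bear on PGK2 and TKL2. CFBP1 had 649, 656 and 684 CPM in 14-day libraries, against 693, 706 and 717 CPM in 8-day libraries. Its groups did not overlap by a small margin, at a log2 fold change of -0.089 ± 0.058 (adjusted p = 0.2). With the repeat library's counts added to the 700 U library, CFBP1 passed the test too (-0.12, adjusted p = 0.0217). All 9 genes had groups that did not overlap, as did 56.6% of all genes tested.

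The enzymes around this branch moved mostly the other way from PGK1 and TKL1. Of 15 other Calvin-Benson genes, 10 rose, 1 (the aldolase FBA3) fell and 4 were not called, with a median log2 fold change of 0.23. The largest increases were those of CP12-3 (1.06 ± 0.44, adjusted p = 0.0412; 4.84 ± 1.59 CPM at 14 days and 2.47 ± 2.02 CPM at 8 days, groups overlapping) and CP12-1 (0.87 ± 0.059, adjusted p = 1.28e-18), small proteins that bind phosphoribulokinase and glyceraldehyde phosphate dehydrogenase in the dark, and of phosphoribulokinase itself, PRK (0.77 ± 0.054, adjusted p = 1.97e-18). PRK makes the ribulose bisphosphate from what RPE and RPI supply. It averaged 2584 ± 113 CPM in 14-day libraries and 1512 ± 36.5 CPM in 8-day libraries (SD, n = 3 each).

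Of 11 related genes outside the cycle (isoforms of these enzymes and 2 transaldolases), 3 rose, 4 fell and 4 were not called, with a median of 0.10. TRA2, a transaldolase, fell by 1.79 on the log2 scale (SE 0.093, adjusted p = 9.98e-24), and the cytosolic kinase PGK3 fell by 1.33 (SE 0.071, adjusted p = 5.03e-23). CFBP2, a further plastid fructose bisphosphatase, rose by 0.87 (SE 0.21, adjusted p = 0.000554). Of 14 genes of the oxidative pentose phosphate pathway, 13 were tested, 4 rose and 5 fell, with a median of 0.048. PGL1, a phosphogluconolactonase, rose by 2.52 (SE 0.40), while the phosphogluconate dehydrogenase PGD3 fell by 1.68 (SE 0.10) and the glucose phosphate dehydrogenase G6PD2 by 1.36 (SE 0.14), with adjusted p of 3.38e-07, 9.45e-21 and 1.16e-12 in that order. PGL1 averaged only 8.21 CPM in 14-day and 1.41 CPM in 8-day libraries. It could pass the count filter through the 14-day libraries alone, so its direction is not independent of that filter.

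Root markers moved with age as well. All 6 root markers that were tested of 8 were lower at 14 days, with a median log2 fold change of -1.91. The largest falls were those of COBL9 (-3.09), IRT1 (-2.43) and BGLU21 (-2.06), where COBL9 averaged only 0.38 CPM at 14 days and 3.35 CPM at 8 days. At that level COBL9 could pass the count filter only through the 8-day libraries. Its direction was thus set by the filter and adds nothing to the 6. The summed level of the root markers was 840 to 953 CPM in 14-day libraries, of which 1 or 2 of 8 markers were at 0, and 1839 to 1895 CPM in 8-day libraries with none at 0. Of 8 green-tissue markers 5 were higher, CAB3 by 0.34, CAB2 by 0.29 and CAB1 by 0.24, and their sum was 31483 to 35272 CPM in 14-day and 27386 to 28518 CPM in 8-day libraries. Chloroplast genes held 13.6 to 15.2% of counts in 14-day and 20.5 to 21.5% in 8-day libraries. Their part in the changes of the 9 genes was not tested, and in whole seedlings fewer cells of a type and less footprint RNA per cell cannot be told apart.

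**Figure D2:**
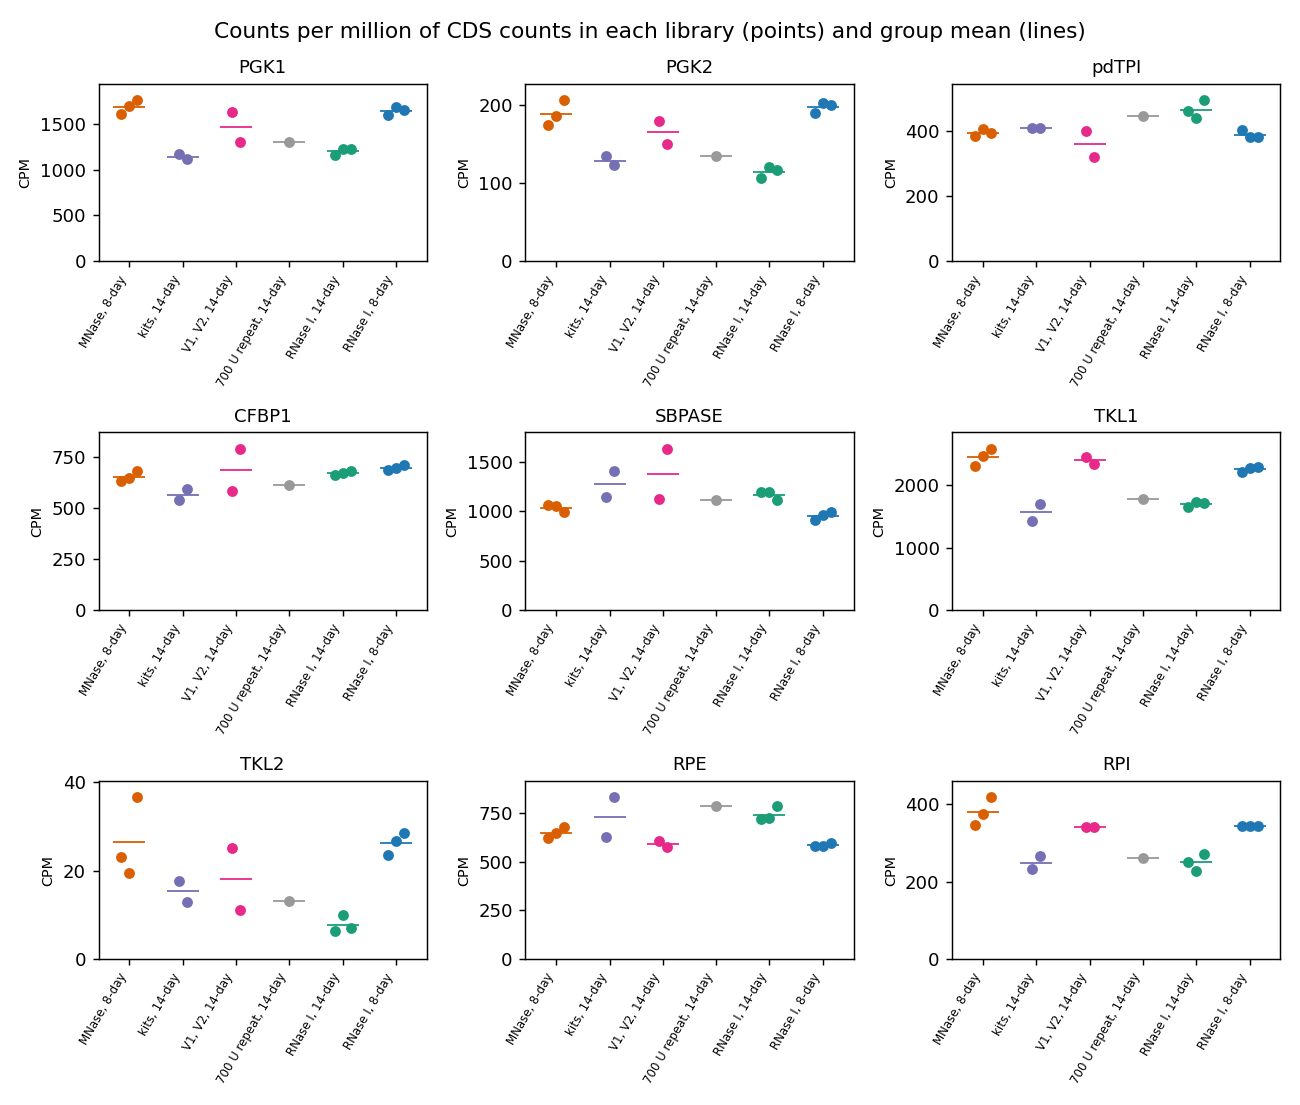
CPM of library totals (linear axis from 0) of each gene in each library (points), by group, with group means as lines; the depleted pair is drawn V1 then V2 and the kit pair ligation-free then ligation-based. PGK1, TKL1, RPI, PGK2 and TKL2 are lower in the undepleted 14-day libraries than in the 8-day RNase I libraries, while SBPASE, RPE and pdTPI are higher.

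Across the 12 libraries counted in 1 table, the genes fell into contrasting patterns, described here by the root mean square difference of log2(CPM + 1) after centring each gene, among 6874 genes with a mean of at least 100 counts. The profile of SBPASE was nearest to those of PHOT1 (0.048), POR C (0.068), TLP18.3 (0.072), CGLD27 (0.087) and AT5G05200 (0.090), against a median distance of 0.40 over all genes. PHOT1 is a blue-light receptor and POR C a protochlorophyllide reductase. The nearest of the 9 genes was CFBP1, at 0.20 and rank 268. RPE (0.25, rank 790) and pdTPI (0.29, rank 1343), which rose with SBPASE between ages, lay farther away.

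The profile of PGK1 was nearest to those of CARB (0.064), AT5G52650 (0.066), AT2G36290 (0.070), AT1G52360 (0.073) and AT5G16070 (0.076), against a median of 0.34. CARB is the large subunit of carbamoyl phosphate synthetase. TKL1 (0.11, rank 57), RPI (0.12, rank 101) and PGK2 (0.13, rank 180) were also close to PGK1, while SBPASE lay at 0.38 and rank 3939. The libraries share groups and dose steps, so the distances describe these 12 libraries only.

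Digestion with MNase was compared with RNase I in 8-day seedlings. None of the 9 genes passed the test, where 1.85% of 16738 genes were called (1.22% higher and 0.627% lower), and 11.6% at an unadjusted p under 0.05. TKL1, RPE, SBPASE and RPI stood higher in all 3 MNase libraries than in any RNase I library, and 17.1% of all genes had groups that did not overlap. The median log2 fold change was 0.060 over the 9 genes and -0.0056 over all genes. The comparison shares its 8-day RNase I libraries with the age comparison.

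TKL1 had 2356, 2471 and 2592 CPM at 75, 150 and 300 U of MNase, against 2191, 2259 and 2267 CPM at 62.5, 125 and 250 U of RNase I. RPE had 633, 650 and 678 CPM with MNase, against 575, 577 and 589 CPM with RNase I. Both genes had groups that did not overlap, with log2 fold changes of 0.14 ± 0.044 (adjusted p = 0.0916) and 0.17 ± 0.053 (adjusted p = 0.0991). SBPASE had 1085, 1054 and 998 CPM with MNase, against 907, 954 and 979 CPM with RNase I (0.14 ± 0.050, adjusted p = 0.178). RPI had 352, 376 and 419 CPM with MNase, against 340.1, 341 and 339.6 CPM with RNase I (0.17 ± 0.064, adjusted p = 0.22).

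The other 5 genes lay closer still. Their log2 fold changes were 0.060 ± 0.046 for PGK1, 0.048 ± 0.058 for pdTPI, -0.013 ± 0.19 for TKL2, -0.040 ± 0.073 for PGK2 and -0.073 ± 0.052 for CFBP1, with adjusted p between 0.647 and 0.987. DESeq2 called TKL1 (adjusted p = 0.0307) and RPE (0.0152). Leaving out 1 library also moved calls. Without the 75 U MNase library TKL1 (0.0134), RPE (0.0416) and RPI (0.048) passed, and without the 300 U MNase library SBPASE did (0.0381), while without any 1 RNase I library none of the 9 did.

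Of the 15 other Calvin-Benson genes, 5 rose with MNase and none fell, led by PRK (0.33 ± 0.044, adjusted p = 8.04e-06), RBCS3B (0.28 ± 0.038, adjusted p = 8.72e-06), a Rubisco small subunit, and the Rubisco activase RCA (0.21 ± 0.036, adjusted p = 0.000533). Of these 11 related genes, 14 genes of the oxidative pathway and 7 tested root markers, none was called by edgeR. Among the green-tissue markers 4 of 8 rose, with CAB1 at 0.38, CAB2 at 0.33 and CAB3 at 0.33, and their sum was 32069 to 33604 CPM in MNase libraries and 27386 to 28518 CPM in RNase I libraries. Their part in the values of the 9 genes was not tested.

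The dose series asked whether digestion strength changes the counts, with 1 slope per doubling of the dose over both nucleases. None of the 9 genes had a slope that passed the test, and 0.0358% of all genes did (6 genes, and 4.28% at an unadjusted p under 0.05). TKL2 had the steepest slope, 0.28 ± 0.11 per doubling (unadjusted p = 0.0152, adjusted p = 1), on 23.6, 19.5 and 36.7 CPM at 75, 150 and 300 U of MNase and 23.3, 26.6 and 28.3 CPM at 62.5, 125 and 250 U of RNase I. Its MNase values did not follow the dose in order. The slopes of the other 8 genes lay between -0.021 (pdTPI) and 0.075 (PGK2).

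SBPASE fell with each MNase dose and rose with each RNase I dose, as its values above show. The difference of its slopes, MNase minus RNase I, was -0.12 ± 0.042 (unadjusted p = 0.0106), and the adjusted p was 0.999. RPI differed the other way, by 0.13 ± 0.060 (unadjusted p = 0.0421, adjusted p = 0.999), since it rose with MNase and stayed level with RNase I. Over all genes 0.0896% were called for this difference and 3.61% at an unadjusted p under 0.05, and none of the 9 was called.

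**Figure D3:**
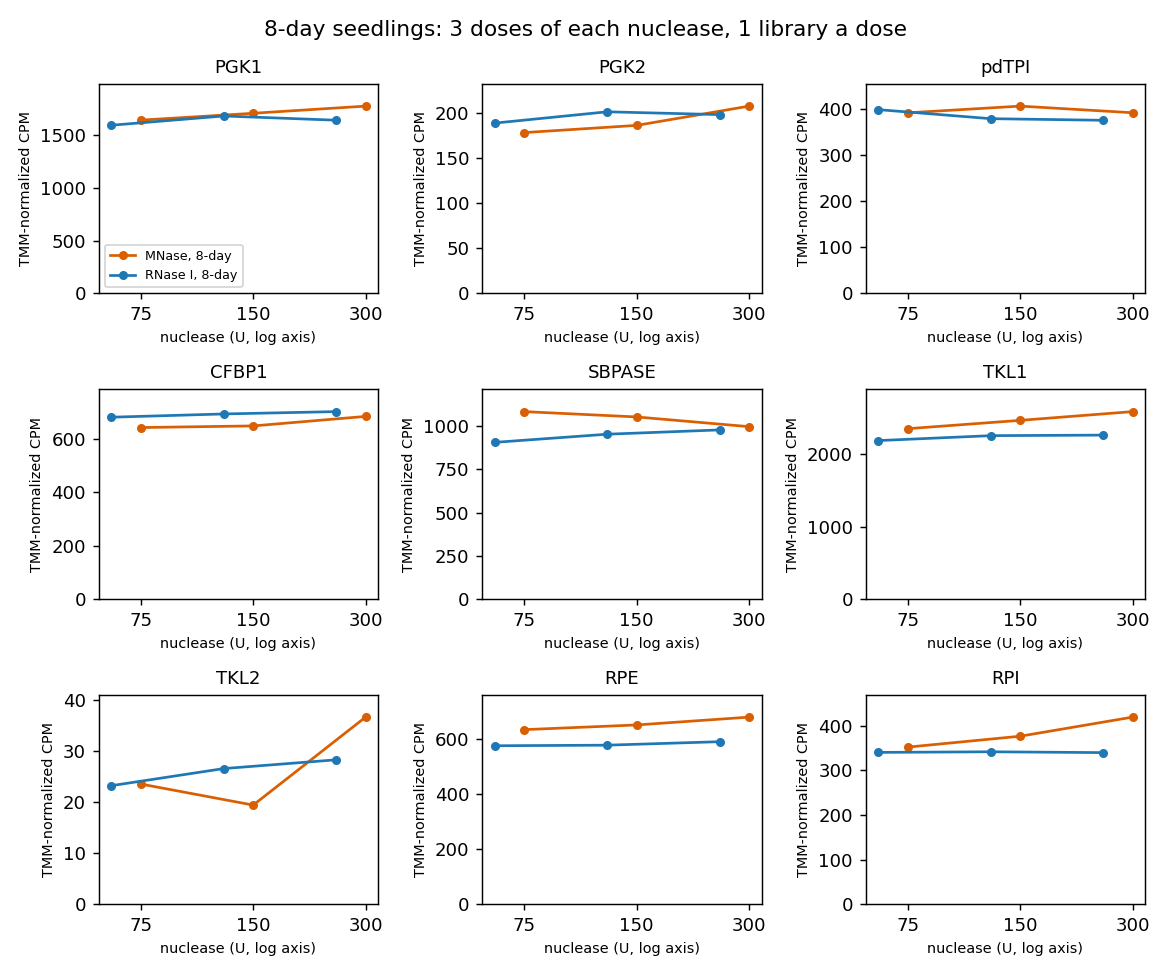
TMM-normalized CPM (linear axis from 0) against nuclease dose (U, log axis) in 8-day seedlings, 1 library a point, for MNase and RNase I. SBPASE runs from 1085 to 998 CPM over the MNase doses and from 907 to 979 CPM over the RNase I doses.

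The effect of rRNA depletion was asked by setting V1 and V2 against the undepleted 14-day libraries, which are also the 14-day libraries of the age comparison. PGK2, TKL1, TKL2 and RPI were called higher and none of the 9 was called lower, where 22.8% of 15532 genes were called, 11.0% higher and 11.7% lower (37.7% at an unadjusted p under 0.05). The median log2 fold change was 0.46 over the 9 genes and 0.031 over all genes. Size selection and dose also differ between these groups. By root mean square over these genes and in summed root markers V1 lies closer to the 8-day libraries. Its differences from the undepleted libraries thus cannot be told apart from an age difference. With library totals in place of TMM the median of all genes shifted to -0.14, and TKL1 and TKL2 alone of the 9 stayed called. No gene of the 9 was called once any 1 of the 3 undepleted libraries was left out. Fits without V1 or without V2 leave 1 depleted library, so their spread comes from the undepleted libraries alone. For these fits only fold changes are given.

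PGK2 had 175 CPM in V1 and 180 CPM in V2, against 99.4, 113.5 and 113.5 CPM in undepleted libraries (log2 fold change 0.70 ± 0.14, adjusted p = 0.0116). Both depleted values stood clear of the undepleted ones, and the fold change was 0.71 without V1 and 0.71 without V2. TKL1 had 2380 CPM in V1 and 2812 CPM in V2, against 1553, 1623 and 1655 CPM in undepleted libraries (0.69 ± 0.16, adjusted p = 0.0189). RPI had 332 CPM in V1 and 408 CPM in V2, against 236, 215 and 263 CPM in undepleted libraries (0.64 ± 0.16, adjusted p = 0.0251). For TKL1 the fold change was 0.79 without V1 and 0.59 without V2, and for RPI 0.76 and 0.50. The order of V1 and V2 in both genes depends on the scaling, since on library totals TKL1 had 2448 CPM in V1 and 2345 CPM in V2, and RPI 341 and 340.2 CPM. TKL2 had 24.4 CPM in V1 and 13.4 CPM in V2, against 6.004, 9.26 and 6.81 CPM in undepleted libraries (1.39 ± 0.33, adjusted p = 0.0187). Without V1 its log2 fold change was 0.86, and without V2 it was 1.77.

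PGK1 had 1585 CPM in V1 and 1566 CPM in V2, against 1093, 1155 and 1193 CPM in undepleted libraries. It missed the threshold (0.46 ± 0.15, adjusted p = 0.0577) although its groups were apart, and stood at 0.43 without V1 and 0.49 without V2. The groups of 6 of the 9 genes did not overlap, as for 53.1% of all genes. The bisphosphatases split the depleted pair. SBPASE had 1096 CPM in V1 and 1962 CPM in V2, against 1119, 1124 and 1080 CPM in undepleted libraries, so that V1 lay within the undepleted range and V2 far above it. CFBP1 had 564.5 CPM in V1 and 947 CPM in V2, against 622, 631 and 659 CPM in undepleted libraries, with V1 below and V2 above them. Neither passed with both libraries (0.46 ± 0.23, adjusted p = 0.182, and 0.25 ± 0.22, adjusted p = 0.438). Without V1, SBPASE stood at 0.81 and CFBP1 at 0.56, and without V2 at 0.013 and -0.15.

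Neither pdTPI nor RPE passed the test. For pdTPI the values were 387 CPM in V1 and 384 CPM in V2, against 432, 413 and 480 CPM in undepleted libraries (-0.20 ± 0.15, adjusted p = 0.362), with -0.22 without V1 and -0.16 without V2. Both depleted values lay below the undepleted ones. For RPE they were 587 CPM in V1 and 687 CPM in V2, against 673.5, 681 and 761 CPM in undepleted libraries (-0.15 ± 0.16, adjusted p = 0.524). V1 lay below the undepleted values and V2 within them. RPE stood at -0.052 without V1 and at -0.24 without V2.

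Of the 15 other Calvin-Benson genes none rose and 2 fell, CP12-3 by 1.67 (adjusted p = 0.0496) and CP12-1 by 1.13 (adjusted p = 0.00294) on the log2 scale. CP12-3 averaged only 1.31 CPM in the depleted and 4.65 CPM in the undepleted libraries. The list depended on the library, with a median of 0.30 without V1 and -0.31 without V2. CP12-1 stood at -1.19 and -1.07 in those fits, and CP12-3 at -2.67 and -1.21. Among related genes outside the cycle PGK3 rose by 1.47 (adjusted p = 0.000924) and TRA2 by 1.28 (adjusted p = 0.00848), and the cytosolic epimerase AT3G01850 fell by 1.27 (adjusted p = 0.00455), with 8 of 11 not called. All 3 kept their direction without V1 and without V2, with TRA2 at 0.75 and 1.68. In the oxidative pathway PGD3 rose by 1.14 (adjusted p = 0.0195), PGL1 fell by 2.36 (adjusted p = 0.00848) and 11 of 13 tested were not called. PGL1 averaged only 1.43 CPM in the depleted and 7.90 CPM in the undepleted libraries. Like CP12-3, PGL1 could pass the count filter through the undepleted libraries alone, so both falls are not independent of that filter. PGD3 stood at 0.57 without V1 and at 1.54 without V2. Of 5 root markers tested 3 were higher, BGLU22 by 1.51, BGLU21 by 1.39 and PYK10 by 0.95, with a list median of 1.39. Without V1 PYK10 stood at 0.76, BGLU21 at 0.50 and BGLU22 at 0.46, while without V2 PYK10 stood at 1.124, BGLU21 at 1.95 and BGLU22 at 2.11. None of 8 green-tissue markers was called with both libraries, and their median was 0.10 without V1 and -0.35 without V2. The share of counts on chloroplast genes was 21.8 to 23.7% in V1 and V2 and 13.6 to 15.2% in undepleted libraries. The part of these in the values of the 9 genes was not tested.

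**Figure D4:**
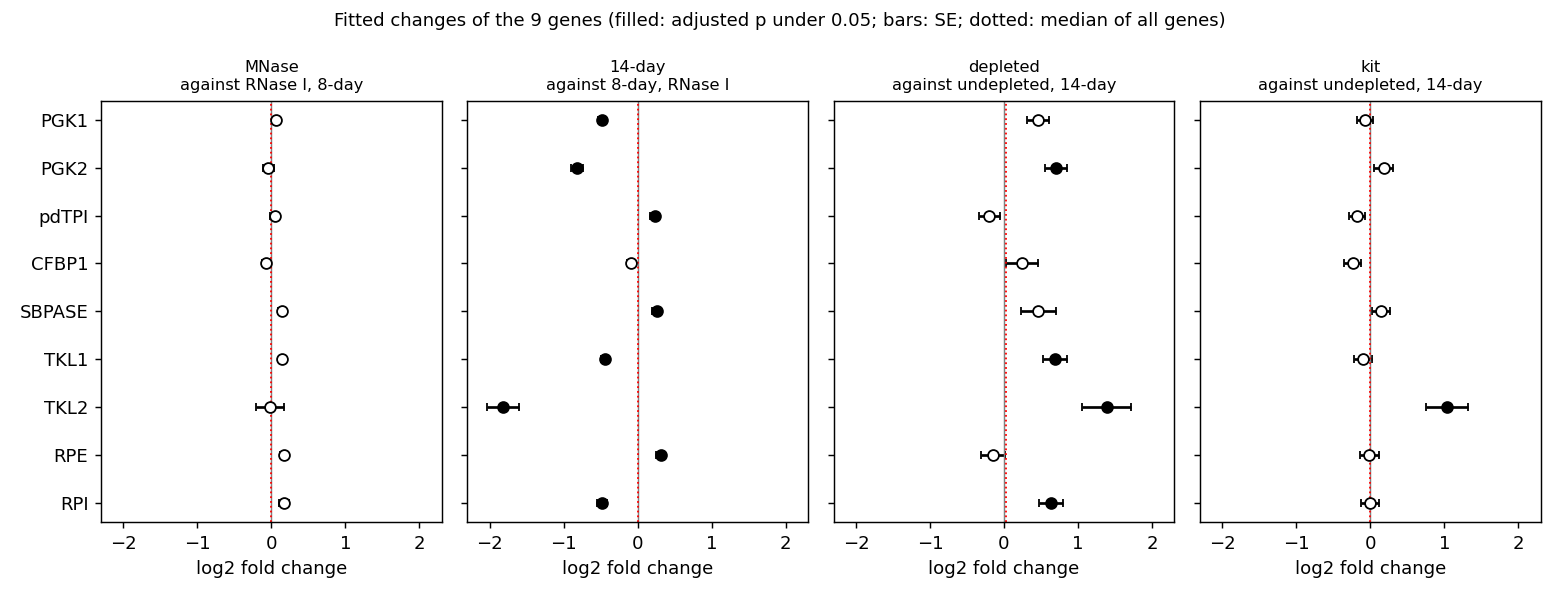
Log2 fold change (x axis) of the 9 genes in 4 comparisons, with SE bars, filled where the adjusted p was under 0.05; the dotted line is the median of all genes. TKL2 spans the widest range, from -1.82 between ages to 1.39 with depletion.

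The kit libraries were set against the same undepleted 14-day libraries, from which they also differ in depletion, size selection, dose and the table that holds them. These cannot be told apart from the kit. The paper reports RNA-ligase preparation for its earlier libraries too, so the comparison is not of a kit against none. Among the 9 genes TKL2 rose and the others did not pass the test, where 28.4% of 14823 genes were called, 13.5% higher and 14.9% lower (38.3% at an unadjusted p under 0.05). The median log2 fold change was -0.013 over the 9 genes and 0.0030 over all genes. TKL2 had 17.3 CPM in the ligation-free and 13.4 CPM in the ligation-based library, against 6.32, 9.71 and 7.12 CPM in undepleted libraries (1.04 ± 0.28, adjusted p = 0.00687). Both kit values lay above the undepleted ones. The call was lost with DESeq2 (1.02, adjusted p = 0.0593), and without the ligation-free library the fold change was 0.81.

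The remaining genes varied around the undepleted level. PGK1 had 1142 CPM in the ligation-free and 1153 CPM in the ligation-based library, against 1151, 1212 and 1247 CPM in undepleted libraries (-0.069 ± 0.11, adjusted p = 0.693). RPI had 228 CPM in the ligation-free and 274 CPM in the ligation-based library, against 248, 226 and 275 CPM in undepleted libraries (0.0020 ± 0.12, adjusted p = 0.994). SBPASE (0.15 ± 0.12), PGK2 (0.18 ± 0.12), RPE (-0.013 ± 0.13), TKL1 (-0.10 ± 0.12), pdTPI (-0.18 ± 0.11) and CFBP1 (-0.24 ± 0.11) had adjusted p between 0.125 and 0.955. The groups of TKL2, PGK2, pdTPI and CFBP1 did not overlap, as for 51.2% of all genes. Without the ligation-based library CFBP1 stood at -0.33, TKL1 at -0.26 and RPE at -0.26. Without the ligation-free library SBPASE stood at 0.33.

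In contrast, 9 of 15 other Calvin-Benson genes were called lower with the kits and none higher, with a median of -0.41. CP12-3 fell by 1.79 (adjusted p = 0.0183), CP12-1 by 0.87 (adjusted p = 3.4e-05) and PRK by 0.60 (adjusted p = 0.000355). CP12-3 averaged only 1.25 CPM in the kit and 4.88 CPM in the undepleted libraries. Among related genes outside the cycle RPI2 rose by 1.67 (adjusted p = 7.64e-09) and PGK3 by 0.37 (adjusted p = 0.018), and CFBP2 fell by 1.56 (adjusted p = 0.000248). In the oxidative pathway 4 of 13 rose, with G6PD3 at 1.01 and G6PD2 at 0.99, and 2 fell, with PGL1 at -2.43. PGL1 averaged only 1.46 CPM in the kit and 8.28 CPM in the undepleted libraries. Like CP12-3, PGL1 could pass the count filter through the undepleted libraries alone, so both falls are not independent of that filter. None of 5 root markers was called, and 2 of 8 green-tissue markers were lower, LHCB5 by 0.43 and PETE2 by 0.35. The test of a difference between the 9 genes and these lists was not made.

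Pairs of single libraries have no replicate check, so their ratios are given with exact Clopper-Pearson 95% intervals that cover counting error only. Between V1 and V2, 37.4% of 14682 genes differed by more than 1.5-fold (28.6% higher and 8.82% lower in V1), and of the 9 genes TKL2 did. TKL2 had 177 counts in V1 and 58 in V2, a log2 ratio of CPM of 1.17 (0.73 to 1.62). SBPASE stood at -0.54 (-0.58 to -0.49) and CFBP1 at -0.44 (-0.51 to -0.38), where the median of all genes was 0.28. With TMM between the pair they moved to -0.81 and -0.72, past 1.5-fold. The other 6 genes lay between 0.0034 (RPI) and 0.32 (PGK1).

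The ligation-free library was set against the ligation-based one. None of the 9 genes was past 1.5-fold, as 18.1% of 13019 genes were (10.9% higher and 7.23% lower). RPE had the lowest ratio, -0.41 (-0.49 to -0.32), followed by SBPASE at -0.30 (-0.36 to -0.24) and TKL1 at -0.25 (-0.30 to -0.19). TKL2, with 73 counts in the ligation-free and 32 in the ligation-based library, stood at 0.45 (-0.17 to 1.099), an interval that includes no difference.

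The repeat of the 700 U library against the first library of the same RPFs shows how far a second preparation, with more PCR cycles, moved the counts. TKL2, on 54 counts in the repeat and 23 in the first library, stood at 0.90 (0.17 to 1.67) and was past 1.5-fold, as were 22.3% of 13680 genes (11.7% higher and 10.6% lower). The other 8 genes lay between -0.16 (pdTPI) and 0.20 (PGK2). For SBPASE (0.0017), RPE (0.0064), RPI (-0.054), TKL1 (0.056) and PGK1 (0.082) the ratios were smaller than their changes between ages, while for pdTPI -0.16 (-0.25 to -0.058) was of similar size to its change of 0.23. For CFBP1 the ratio was -0.15 (-0.23 to -0.067), larger than its change of -0.089 between ages, and this library is the one added in the fit that called CFBP1.

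**Figure D5:**
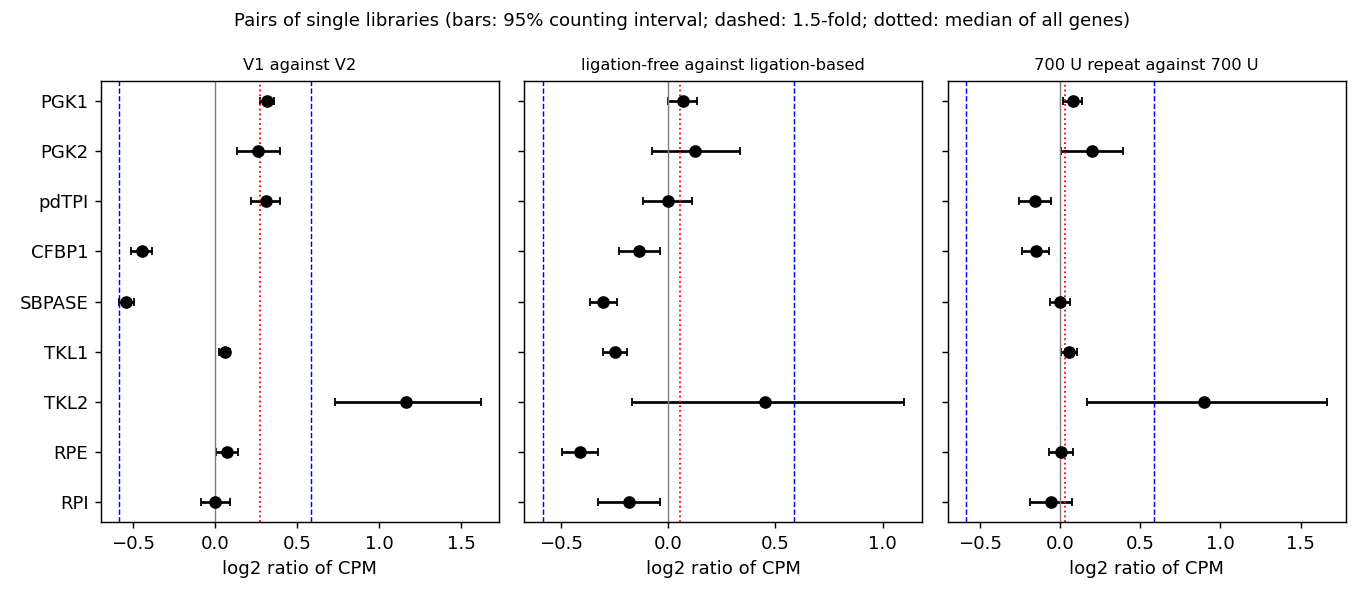
Log2 ratio of CPM (x axis) between 2 single libraries for the 9 genes, with 95% counting intervals, 1.5-fold as dashed lines and the median of all genes as a dotted line. TKL2 is past 1.5-fold in V1 against V2 (1.17) and in the 700 U repeat against the first library (0.90).

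The 250 bases before each annotated gene start were searched on both strands for sequences known from light- and clock-regulated plant promoters, in the RefSeq annotation of TAIR10.1. The motifs were the G-box CACGTG, the I-box GATAAG and the evening element AAAATATCT, searched as spelled and as reverse complements; no match overlapped another. The G-box occurred before CFBP1 and TKL2, and in 6.49% of 27431 promoters of the same length. The I-box occurred before CFBP1, at 2 places, and in 12.3% of promoters. The evening element was found before none of the 9 and in 2.36% of promoters. A link of these motifs to the footprint values was not tested. The promoters of the bisphosphatases are shown, with motif letters in capitals: CFBP1 at chr3:20016587-20016836 and SBPASE at chr3:20709044-20709293, both on the plus strand.
CFBP1: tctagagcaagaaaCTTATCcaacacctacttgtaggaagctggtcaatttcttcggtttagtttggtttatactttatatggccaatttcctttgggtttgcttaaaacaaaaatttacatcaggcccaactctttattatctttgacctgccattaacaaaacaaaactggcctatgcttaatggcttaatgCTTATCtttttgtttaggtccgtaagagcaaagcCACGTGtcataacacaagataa
SBPASE: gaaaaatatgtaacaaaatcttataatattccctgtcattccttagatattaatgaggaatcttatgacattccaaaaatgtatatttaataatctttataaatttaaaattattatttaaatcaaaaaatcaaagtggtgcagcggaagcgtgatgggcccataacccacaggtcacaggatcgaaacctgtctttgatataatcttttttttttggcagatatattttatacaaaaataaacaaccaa
The G-box of CFBP1 lies 22 to 17 bases before the annotated start and its I-boxes, read on the other strand, 236 to 231 and 56 to 51 bases before it. SBPASE had none of the 3 motifs in this window. A match describes the letters and not a bound site.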

How the data were processed

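Counts of RPFs over CDS were deposited by the authors for 14 Arabidopsis libraries as raw counts, whole numbers with no normalization, in 2 tables of the same 27628 genes. The authors trimmed reads with cutadapt, removed rRNA, tRNA and snoRNA and aligned the rest to TAIR10 with STAR, keeping 1 alignment a read, and counted CDS reads by strand with featureCounts, multi-mapped reads included; versions were not given in the sources used here. Molecular identifiers were trimmed and not used to remove duplicates. The depth of 2338819 to 11583740 counts limits precision mainly for TKL2 (16 to 306 counts).

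Groups of libraries were tested with edgeR 4.0.16 (R 4.3.3, limma 3.58.1; TMM, glmQLFit and glmQLFTest) on those genes that reached 10 counts in 3 or more libraries (2 for depletion and kits), with Benjamini-Hochberg adjustment over all genes tested. SEs were derived from the fold change and the F statistic. DESeq2 1.42.0, library totals, no filter, nuclear genes only, the repeat library summed, a dose block and leaving out each library were alternatives. List values without V1 or V2 were an alternative chosen after seeing the data. Single libraries were set against each other as log2 ratios of CPM, over the genes that reached 10 counts in both. Sequences were read with Biopython 1.88 and Python 3.11.15 from TAIR10.1, in which 99.8% of 27420 nuclear CDS began with ATG at the deposited coordinates. Simulated data with 1.5-fold changes gave back 67.2% of changed genes for the age comparison (15051 genes) and 5.97% for depletion (15186 genes). The 9 genes and the other lists were chosen with earlier results of these data known. Named genes are the 9, up to 3 called genes a list and comparison with the largest change (FBA3 was named after its value was seen), and the 5 genes nearest in profile to SBPASE and PGK1.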

Additional observations from a re-analysis of the deposited data

How the results depend on the processing

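The calls between ages (3 higher, 5 lower) held in all 11 alternatives, with 6 lower once the repeat library was summed. For MNase against RNase I the genes called numbered 309, and leaving out 1 library gave 125 to 431; 0 of the 9 were called, against 2 with DESeq2, 1 with no filter, 1 with nuclear genes only and 0 to 3 when 1 library was left out. With dose rank as a replicate block, since the 3 doses share their order, 387 genes and 0 of the 9 were called, and TKL2 stood at 0.031 (0.020 with DESeq2). For depletion the genes called numbered 3534, and 1161 to 6233 with 1 library left out; 4 of the 9 were called, 2 with library totals and 0 to 7 with 1 library left out. For the kits 4209 genes were called and 2546 with DESeq2, which called 0 of the 9, and leaving out 1 undepleted library gave 1 of the 9. For the dose slope 6 genes were called, 2 with DESeq2, 3 with nuclear genes only and 1 to 26 with 1 library left out. The difference of slopes called 15 genes, 2 with no filter, 1 with nuclear genes only, 23 with DESeq2 and 1 to 466 with 1 library left out, alternatives chosen after seeing the data. Values near 0 changed sign: the fold change of RPI with the kits was -0.011 with library totals and -0.015 with no filter, and the slope of SBPASE was 0.0023 with library totals. With 1 library left out, fold changes ran for MNase from -0.10 to 0.0019 (PGK2) and from -0.32 to 0.22 (TKL2), for depletion from -0.15 to 0.56 (CFBP1), for the kits from -0.040 to 0.33 (SBPASE), -0.12 to 0.14 (RPI), -0.26 to 0.063 (TKL1) and -0.26 to 0.22 (RPE), and for the slope of SBPASE from -0.041 to 0.036. With a lone library left in a group, its spread was taken from the other group. The cause of these shifts was not tested. Depletion rests on 2 libraries that differ, and depth limits TKL2.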
